A study of Mus musculus with 9 samples.

Results

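The genes described here are the 36 mouse genes that encode histone acetyltransferases, lysine deacetylases, bromodomain readers of acetylated lysine and the corepressor NCOR1. They were chosen by name from a list, and all 36 were found by symbol among the 39017 genes of the count table. The RNA came from CD4+ T cells, which become helper and regulatory cells, of lymph nodes from male C57BL/6 mice. The 4 cKO samples (replicates 2, 6, 7 and 8) carried the floxed Kdm6a allele on their X chromosome and 1 copy of the CD4-Cre transgene. The 5 WT samples (replicates 1, 3, 4, 5 and 9) carried the same floxed allele and no Cre. CD4-Cre is driven by regulatory sequence of Cd4 and recombines loxP sites in every cell that has used it, which in mice includes the CD8 lineage through the thymus. The labels describe no stimulation, though the word "stim" stands in the name of the count table, and they do not say whether each sample was 1 mouse or a pool, so the p-values measure only the spread between these samples.

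Acetylation of histone tails by acetyltransferases loosens chromatin at promoters and enhancers and creates docking sites for bromodomains, and deacetylases reverse it. Zinc-dependent deacetylases fall into class I, IIa, IIb and IV, and sirtuins use NAD as a cosubstrate. Kdm6a, the deleted gene, encodes a demethylase of lysine 27 of histone H3, the residue that the acetyltransferases p300 and CBP acetylate once it is free of methyl groups. In T cells the deacetylases act in lineage choice and in the silencing of cytokine genes.

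Total counts ran from 20587482 to 23820732 in cKO samples and from 21482927 to 26387488 in WT samples. Kdm6a, summed over the whole gene with exons outside any deleted part, was at 42.7 ± 1.48 CPM (SD, n = 4) in cKO and 62.7 ± 1.59 CPM (SD, n = 5) in WT, with no overlap, and fell by 31.9% (edgeR adjusted p = 2.89e-05). CPM here are counts relative to the TMM-scaled total of the sample. The 7 markers of CD4 T cells summed to between 2726 and 2927 CPM in cKO and between 2748 and 2969 CPM in WT. Within that list Lck, Cd3g and Cd3d fell (log2 -0.20, -0.23 and -0.19, edgeR adjusted p = 0.00547, 0.0311 and 0.0476), Cd4 rose (log2 0.13, adjusted p = 0.0480) and the other 3 did not pass. The neutrophil markers S100a8, S100a9 and Ly6g were at 0 in all samples. The summed B cell, macrophage, dendritic, erythroid and stromal lists overlapped between genotypes, though the B cell marker Cd79b fell, at 0.911 CPM in cKO and 1.72 CPM in WT (log2 -0.91, edgeR adjusted p = 0.0104). Mitochondrial genes, whose share of the counts can vary with cell and RNA quality, held 2.59% ± 0.138 of counts (SD, n = 4) in cKO and 2.38% ± 0.0573 (SD, n = 5) in WT (two-sided exact permutation p = 0.0159, and 0.0571 on leaving out WT 1, WT 3, WT 4 or WT 5). The part of this share and of these markers in the results below was not tested. In bulk RNA, fewer cells of a type and less RNA per cell cannot be told apart.

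Most of the acetylation machinery differed little between cKO and WT cells. Of the 36 genes, 35 passed the filter on low counts, and of these 1 rose (Hdac11), 2 fell (Sirt7 and Kat2a) and 32 did not pass the test (edgeR quasi-likelihood, adjusted p below 0.05 over all 14693 genes tested). That is 8.57% of the members, against 15.8% of all tested genes. By direction, 2.86% of the members were higher, against 7% of all tested genes, and 5.71% were lower, against 8.82%. At unadjusted p under 0.05, 4 members were higher and 7 lower, which is 31.4% against 31.1% of all tested genes. In 5 members, or 14.3%, the cKO and WT values were fully separate, against 15.9% of all tested genes. These shares lie near or below the background. The median log2 fold change of the members was -0.04, and that of all tested genes was 0.0012. The median size of change without regard to sign was 0.08 on the log2 scale for the members and 0.11 for all tested genes. The median standard error was also smaller for the members, at 0.0547 against 0.0745 for all tested genes. Its part in the smaller size of change was not tested.

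The precision of the comparison bounds what could have gone unseen. The standard error of the members' log2 fold changes had a median of 0.055 and ran from 0.029 for Brd2 to 0.16 for Hdac11. The members are long and abundant genes, with a median level of 72.8 CPM against 23.4 CPM for all tested genes and a median exonic length of 5895 bases against 3827. In 34 of 35 members the 95% interval of the fold change lay within a 1.5-fold change in either direction, in 28 within 1.25-fold and in 4 within 1.1-fold. Hdac11 was the exception to the first count. Among the 32 members that did not pass, the lowest bound was that of Kat2b at -0.44 and the highest that of Sirt5 at 0.39 on the log2 scale.

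**Figure D1:**
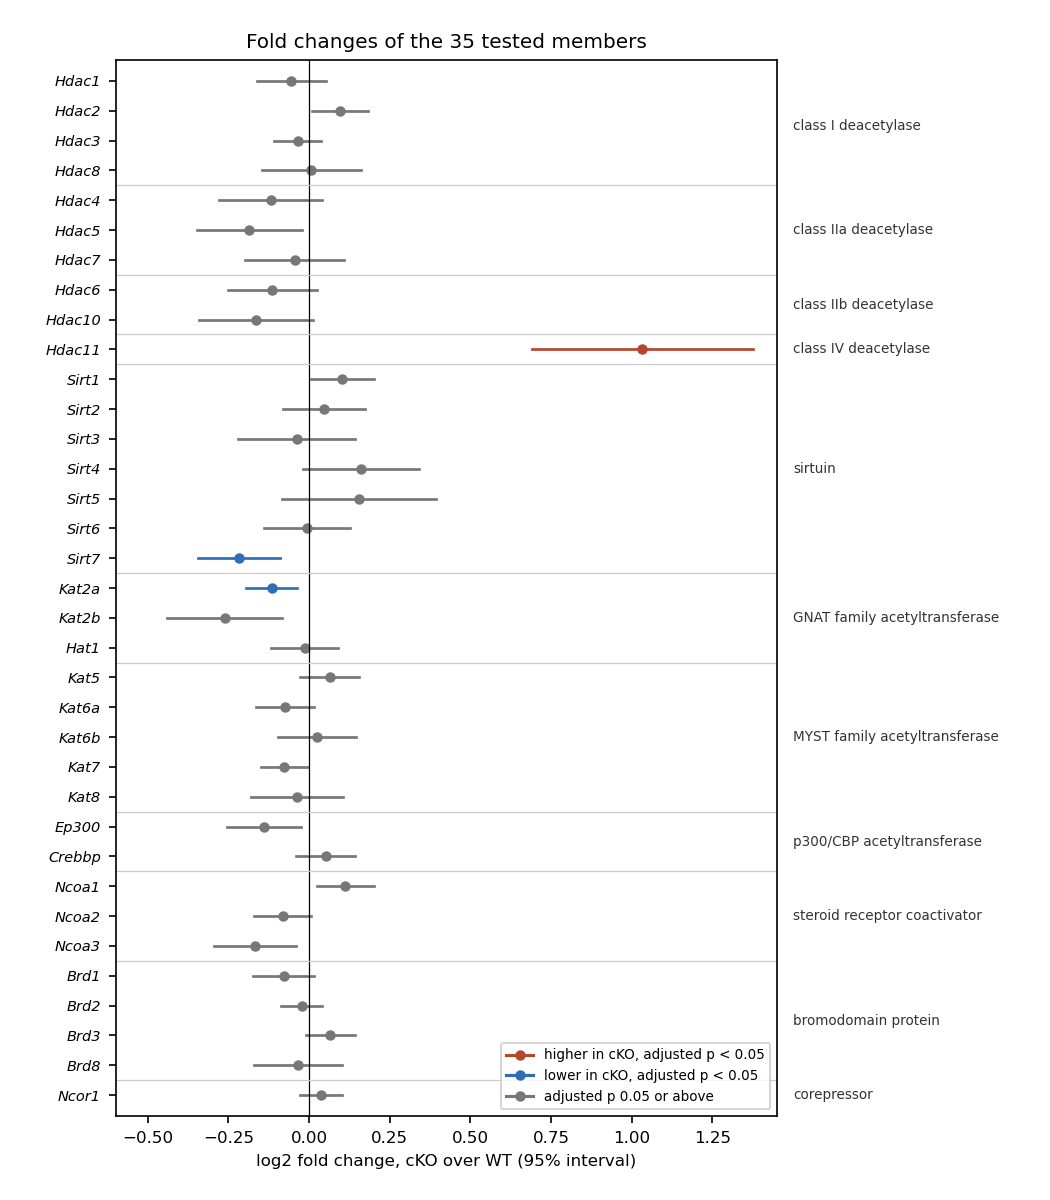
Log2 fold changes of the 35 tested members, cKO over WT, on the horizontal axis, with points for the fitted value and lines for its 95% interval, grouped by role from top to bottom. Hdac11 stands at 1.03, and all other members lie between -0.26 and 0.16.

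The promoters of the 3 called members are shown to place them in the genome, since no mark or factor was measured on them. They run from 250 bases before to 50 after the RefSeq transcription start on GRCm38.p6, the assembly also called mm10, and each is written 5′ to 3′ along its gene, with CpG dinucleotides in capitals. Hdac11 lies on the plus strand with its window at chr6:91156565-91156864, Sirt7 on the minus strand at chr11:120624965-120625264 and Kat2a on the minus strand at chr11:100712418-100712717.
Hdac11: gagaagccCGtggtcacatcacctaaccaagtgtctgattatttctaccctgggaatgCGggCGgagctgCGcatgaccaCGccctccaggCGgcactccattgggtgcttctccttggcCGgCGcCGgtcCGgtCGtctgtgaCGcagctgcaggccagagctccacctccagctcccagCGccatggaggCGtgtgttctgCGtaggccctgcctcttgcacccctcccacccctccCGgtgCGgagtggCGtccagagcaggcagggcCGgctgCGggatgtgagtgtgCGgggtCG
Sirt7: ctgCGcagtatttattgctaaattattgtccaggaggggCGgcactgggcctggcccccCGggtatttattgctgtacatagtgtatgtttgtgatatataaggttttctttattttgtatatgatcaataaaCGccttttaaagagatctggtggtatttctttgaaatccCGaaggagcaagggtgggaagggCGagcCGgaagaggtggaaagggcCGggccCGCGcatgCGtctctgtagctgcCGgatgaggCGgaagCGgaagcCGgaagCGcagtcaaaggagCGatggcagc
Kat2a: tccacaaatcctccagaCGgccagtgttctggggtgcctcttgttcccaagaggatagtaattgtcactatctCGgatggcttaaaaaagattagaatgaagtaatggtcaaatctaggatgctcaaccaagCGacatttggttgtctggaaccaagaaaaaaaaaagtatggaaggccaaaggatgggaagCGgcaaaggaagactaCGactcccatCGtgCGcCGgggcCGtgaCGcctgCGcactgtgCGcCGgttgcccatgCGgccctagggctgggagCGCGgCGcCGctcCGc
The windows hold 22, 17 and 19 CpG dinucleotides for Hdac11, Sirt7 and Kat2a in that order. Over the 29 members that matched the RefSeq table, the median was 20, and it was also 20 over the 12665 promoters of tested genes, against 7 over all 32851 promoters of the table. A GC box (GGGCGG, either strand) was found in 62.1% of the members' promoters and in 61.5% of those of tested genes. The windows of Hdac11 and Sirt7 hold 1 each, and that of Kat2a holds none with these letters. A CCAAT box (CCAAT, either strand) was found in 41.4% of the members' promoters and in 37.7% of those of tested genes.

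Hdac11, the sole class IV deacetylase, was about 2 times higher in cKO cells, at a low level in both genotypes. Its enzyme removes long fatty acyl groups from lysine more readily than acetyl groups, and in mouse antigen-presenting cells it restrains Il10. The gene (ENSMUSG00000034245) spans 91156665 to 91174692 on the plus strand of chromosome 6 of mm10. The cKO samples 2, 6, 7 and 8 held 1.77, 1.62, 1.54 and 1.48 CPM, and the WT samples 1, 3, 4, 5 and 9 held 0.736, 0.859, 0.882, 0.614 and 0.802 CPM. Every cKO sample lay above every WT sample. These values rest on 42, 39, 32 and 33 counts in cKO and on 19, 20, 20, 13 and 21 counts in WT. The mean was 1.60 ± 0.128 CPM (SD, n = 4) in cKO and 0.779 ± 0.108 CPM (SD, n = 5) in WT, a log2 fold change of 1.03 (SE 0.16, 95% interval from 0.69 to 1.37, edgeR adjusted p = 0.00215). The call held in all 18 other settings tried, with log2 fold changes from 0.97 to 1.08. Per length, Hdac11 was the lowest of the tested members in both genotypes, at 0.416 RPKM in cKO and 0.202 RPKM in WT.

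The natural killer markers Ncr1, Klrb1c and Klrk1 summed to between 1.87 and 10.2 CPM in cKO and between 0.649 and 1.94 CPM in WT, nearly all of it from Klrk1, which activated T cells can also express, and cKO 7 lay within the WT range. The CD8 markers Cd8a and Cd8b1 summed to between 15.1 and 19.1 CPM in cKO and between 11.9 and 15.08 CPM in WT, so that the genotypes were separate by a narrow margin, and Cd8b1 rose (log2 0.28, edgeR adjusted p = 0.0296). The library cKO 2 held the most Klrk1, 9.36 CPM, and the most Hdac11, and without it the fold change of Hdac11 was 0.98 on the log2 scale. The part of these cells in the Hdac11 value was not tested. On the opposite strand, Gm44002 covers 15.4% and Gm14573 covers 2.49% of the exonic bases of Hdac11, and neither passed the filter on low counts.

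**Figure D2:**
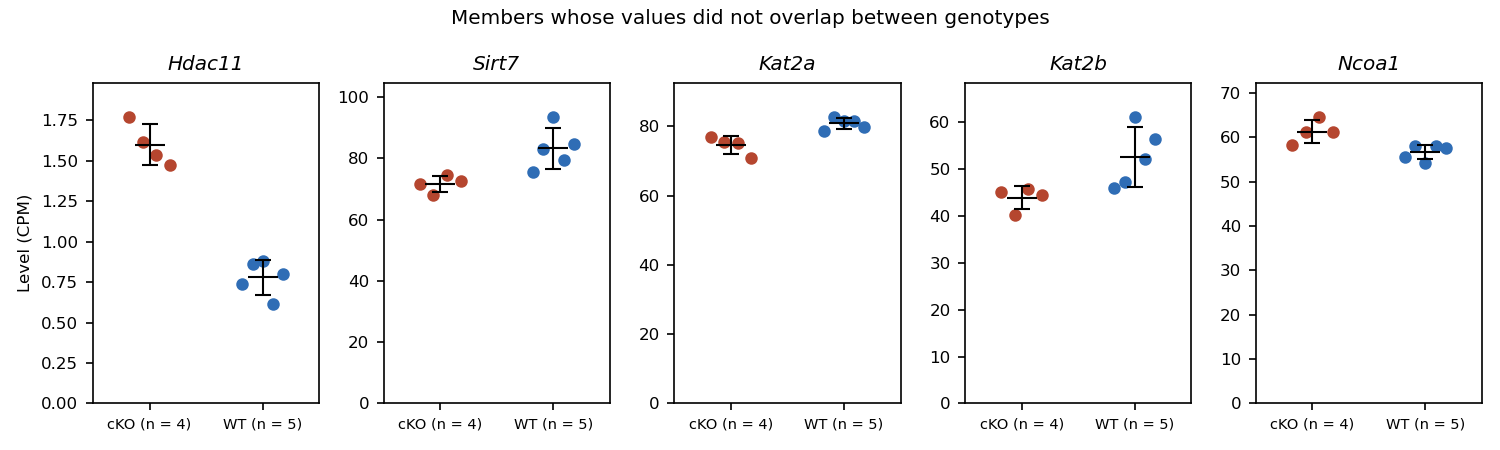
Level in CPM of each sample for the 5 members whose values did not overlap between genotypes, with points for samples (cKO left, WT right) and bars for mean ± SD. Hdac11 in cKO runs from 1.48 to 1.77 CPM, above all WT samples, and Sirt7, Kat2a and Kat2b lie lower in cKO, by at most 0.26 on the log2 scale. Axes start at 0.

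Sirt7 and Kat2a fell by small amounts. Sirt7 encodes the nucleolar sirtuin, which deacetylates lysine 18 of histone H3 and acts on ribosomal RNA synthesis. The cKO samples 2, 6, 7 and 8 held 71.7, 67.96, 74.5 and 72.5 CPM, and the WT samples 1, 3, 4, 5 and 9 held 75.6, 83.1, 93.6, 79.6 and 84.7 CPM. All cKO samples lay below all WT samples, with WT 1 the nearest to them and WT 4 the farthest. The log2 fold change was -0.22 (SE 0.06, edgeR adjusted p = 0.0270), a ratio of 0.860. The call was lost on leaving out cKO 6, cKO 8, WT 3 or WT 9 (edgeR adjusted p = 0.0865, 0.0605, 0.0528 and 0.0550), while the log2 value stayed between -0.25 and -0.17. Sirt7 (ENSMUSG00000025138) spans 120618372 to 120625240 on chromosome 11 and shares 124 exonic bases with Mafg on the same strand, whose level was 60.3 CPM in cKO and 57.3 CPM in WT (adjusted p = 0.643).

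Kat2a encodes GCN5, an acetyltransferase of the SAGA and ATAC coactivator complexes. It was at 77.0, 75.3, 75.2 and 70.8 CPM in cKO 2, 6, 7 and 8, and at 78.7, 82.7, 81.4, 81.5 and 79.8 CPM in WT 1, 3, 4, 5 and 9. The genotypes did not overlap, and the gap between cKO 2 and WT 1 was the narrowest. The log2 fold change was -0.12 (SE 0.04, edgeR adjusted p = 0.0472), a ratio of 0.923. This call lay next to the threshold and was lost in 7 of the 9 fits that left out 1 sample, all but those without cKO 2 and without WT 1 (adjusted p from 0.0755 to 0.133). It was also lost with DESeq2 size factors (0.0522), with upper-quartile scaling (0.0967), with no count filter (0.0984) and after offsets on GC content and length (0.129). Kat2a (ENSMUSG00000020918) spans 100704746 to 100712465 on chromosome 11 and shares no exonic base with another annotated gene.

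Kat2b, which encodes PCAF, the paralog of GCN5 that takes its place in the same complexes, lay just outside the threshold. It was at 45.1, 40.3, 45.7 and 44.4 CPM in cKO 2, 6, 7 and 8, and at 45.9, 47.3, 61.1, 52.2 and 56.4 CPM in WT 1, 3, 4, 5 and 9. No cKO sample reached the lowest WT sample, WT 1, though cKO 7 and cKO 2 came close to it. The log2 fold change was -0.26 (SE 0.08, edgeR adjusted p = 0.0501). It passed with DESeq2 (0.0263), with no count filter (0.0330), when 4 samples had to reach 1 CPM (0.0495), after offsets on GC content and length (0.0389), without WT 1 (0.0167) and without WT 3 (0.0427). Hat1, the acetyltransferase of newly made histone H4 and the third tested gene of the GNAT family, was at 160 ± 5.98 CPM (SD, n = 4) in cKO and 161 ± 9.44 CPM (SD, n = 5) in WT, a log2 difference of -0.01 (SE 0.05, adjusted p = 0.870).

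The class I deacetylases, of which HDAC1, HDAC2 and HDAC3 are catalytic subunits of large nuclear corepressor complexes, gave no call in edgeR, DESeq2 or limma-voom. At unadjusted p under 0.05 in edgeR, 1 of 4 was higher, against 14.9% of all tested genes. Hdac1 was at 69.5, 68.1, 70.9 and 76.4 CPM in cKO 2, 6, 7 and 8, and at 70.0, 69.9, 76.9, 74.9 and 78.3 CPM in WT 1, 3, 4, 5 and 9 (log2 -0.06, SE 0.05). Hdac2, its close paralog, was at 135, 147, 137 and 142 CPM in cKO and at 139, 131, 126, 131 and 128 CPM in WT in the same order (log2 0.10, SE 0.04, edgeR adjusted p = 0.124). In both genes the genotypes overlapped, in Hdac2 through WT 1 alone, and without WT 1 Hdac2 passed (adjusted p = 0.0484). Hdac3, the deacetylase of the NCOR1 and SMRT complexes, was at 79.7, 84.5, 80.5 and 83.4 CPM in cKO and at 84.3, 82.4, 85.2, 82.9 and 85.5 CPM in WT (log2 -0.04, SE 0.03). Its samples were intermingled, and its interval ran from -0.11 to 0.04. Hdac8, which acts on the cohesin subunit SMC3, was lower in level, at 14.9 ± 1.35 CPM (SD, n = 4) in cKO and 14.8 ± 0.744 CPM (SD, n = 5) in WT. Ncor1, which encodes the corepressor that docks and activates HDAC3, was at 444 ± 12.4 CPM in cKO and 433 ± 4.85 CPM in WT (log2 0.04, SE 0.03, adjusted p = 0.431).

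The class IIa deacetylases shuttle between nucleus and cytoplasm and repress targets of MEF2 factors. Hdac7, the member best known from thymocytes, supplied 88.7% of the class per length in cKO and 87.8% in WT, at 55.6 and 57.4 RPKM. Its level was 376 ± 44.2 CPM (SD, n = 4) in cKO and 387 ± 17.1 CPM (SD, n = 5) in WT, and cKO 2, at 319 CPM, lay below all other samples. Its log2 difference of -0.04 (SE 0.07) was 0.03 without that library. Hdac5 was at 46.1 ± 2.35 CPM in cKO and 52.4 ± 5.67 CPM in WT, a log2 difference of -0.19 (SE 0.07, edgeR adjusted p = 0.116) that passed without WT 1 (0.0308). Hdac4 was at 28.6 ± 1.77 CPM in cKO and 31.0 ± 3.03 CPM in WT (log2 -0.12, SE 0.07), and it passed with 1 surrogate variable in the fit (0.0352). Hdac9 did not pass the filter on low counts, and where it was tested, with no count filter and by DESeq2, its adjusted p was 0.558 and 0.611. It had 2, 16, 7 and 9 counts in cKO 2, 6, 7 and 8 and 5, 8, 4, 6 and 8 counts in WT 1, 3, 4, 5 and 9, and the groups overlapped. Of the class IIb genes, Hdac6, a cytoplasmic deacetylase of tubulin, was at 42.9 ± 3.70 CPM in cKO and 46.4 ± 2.58 CPM in WT, and Hdac10, which deacetylates polyamines, was at 24.9 ± 2.20 CPM in cKO and 27.9 ± 2.66 CPM in WT. Neither passed (adjusted p = 0.242 and 0.190).

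The other sirtuins gave no call. Sirt1, the most studied nuclear sirtuin, was at 66.5 ± 1.47 CPM (SD, n = 4) in cKO and 61.96 ± 3.44 CPM (SD, n = 5) in WT (log2 0.10, SE 0.04, edgeR adjusted p = 0.141). The genotypes overlapped through WT 5, at 65.6 CPM, since the cKO samples ran from 65.5 to 68.6 CPM. Sirt2, mainly cytoplasmic, and Sirt6, which acts on lysine 9 of histone H3, had log2 differences of 0.05 and -0.007. The mitochondrial sirtuin genes were the lowest of the family, with Sirt3 at 0.909 RPKM in cKO and 0.934 RPKM in WT, Sirt4 at 2.98 and 2.67 RPKM, and Sirt5 at 1.22 and 1.09 RPKM. Their log2 differences were -0.04, 0.16 and 0.15, with adjusted p of 0.806, 0.205 and 0.368. Sirt3 shares 7% of its exonic bases with Ric8a and 5.73% with Psmd13, both on the opposite strand and more abundant than it. The strand setting of the counting is not given in the sources used here, so part of the Sirt3 value could be reads of these genes.

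**Figure D3:**
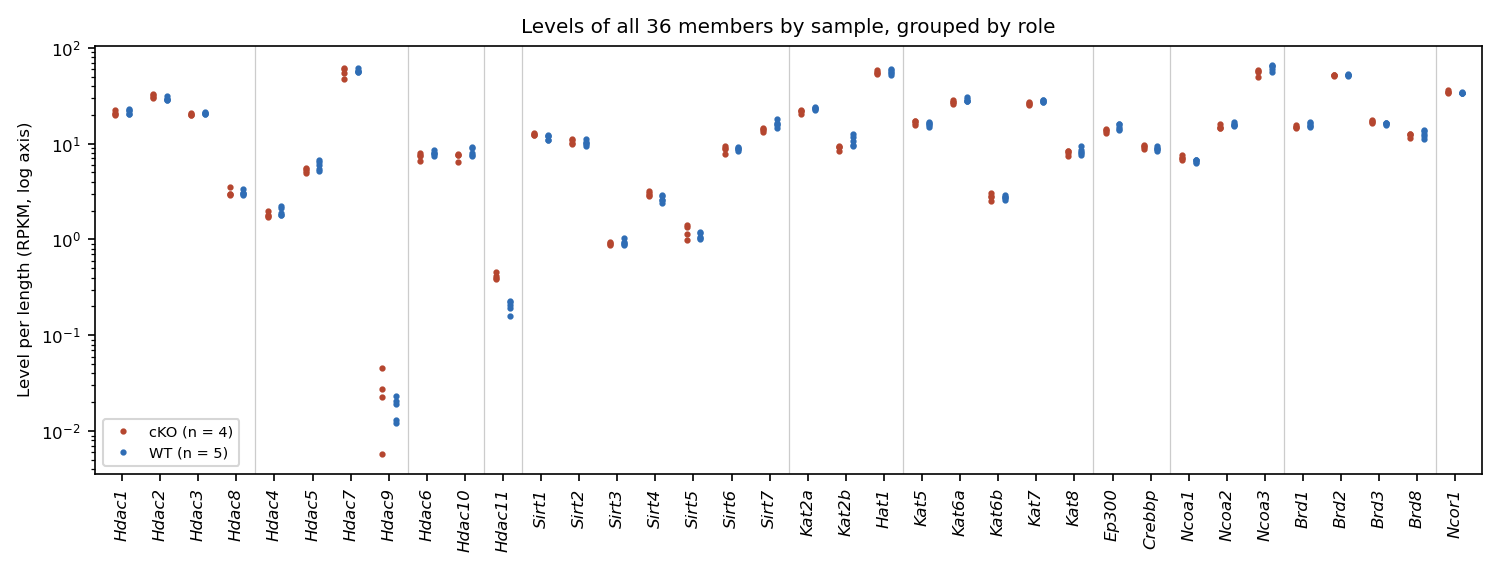
Level per length in RPKM on a log axis for all 36 members, with 1 point per sample (cKO left of WT within each gene) and lines between roles. Levels span from under 0.05 RPKM for Hdac9 to about 62.2 RPKM for Ncoa3 in WT, and the genotypes lie close in all but Hdac11 and the sparsely counted Hdac9.

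The paralogs p300 and CBP, which acetylate lysine 27 of histone H3, did not pass. Ep300 was at 193, 183, 201 and 199 CPM in cKO 2, 6, 7 and 8, and at 198, 212, 231, 201 and 227 CPM in WT 1, 3, 4, 5 and 9. The lower WT samples, 1 and 5, lay among the cKO samples. The log2 fold change was -0.14 (SE 0.05, 95% interval from -0.25 to -0.03, edgeR adjusted p = 0.0936), and it passed without WT 1 (0.0413). Crebbp was at 118, 123, 128 and 130 CPM in cKO 2, 6, 7 and 8, and at 119.6, 114, 128, 120 and 121 CPM in WT 1, 3, 4, 5 and 9. Its groups overlapped, with a log2 fold change of 0.05 (SE 0.04, 95% interval from -0.04 to 0.14, adjusted p = 0.437). Per length Ep300 supplied 59.6% of the sum of the pair in cKO and 62.7% in WT.

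Among the MYST family, no gene was called in edgeR and none by DESeq2 or limma-voom. At unadjusted p under 0.05 in edgeR, 1 of 5 was lower, against 16.3% of all tested genes. Kat7, which encodes HBO1, an acetyltransferase linked to replication origins, was at 146 ± 4.43 CPM (SD, n = 4) in cKO and 154 ± 2.98 CPM (SD, n = 5) in WT (log2 -0.08, SE 0.03, edgeR adjusted p = 0.136). Kat6a, which encodes MOZ, was the most abundant per length, at 27.1 RPKM in cKO and 28.6 RPKM in WT, while its paralog Kat6b was at 2.79 and 2.75 RPKM. Kat5, which encodes TIP60 of the NuA4 complex, and Kat8, which encodes MOF and acetylates lysine 16 of histone H4, had log2 differences of 0.06 (SE 0.04) and -0.04 (SE 0.07). Rnaseh2c covers 12.1% of the exonic bases of Kat5 from the opposite strand.

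The steroid receptor coactivators Ncoa1, Ncoa2 and Ncoa3 bind nuclear receptors and bring in p300 and CBP. Ncoa3 was the most abundant of all members per length in WT, at 62.2 RPKM. In cKO Ncoa3 was at 55.4 RPKM, just under Hdac7, at 55.6. It was at 460, 392, 445 and 453 CPM in cKO 2, 6, 7 and 8, and at 476, 508, 505, 443 and 521 CPM in WT 1, 3, 4, 5 and 9. WT 5 lay among the cKO samples, and without it Ncoa3 passed (edgeR adjusted p = 0.0336, against 0.0747 with it, at a log2 fold change of -0.17). Ncoa1 did not overlap between genotypes, at 61.3 ± 2.63 CPM (SD, n = 4) in cKO and 56.7 ± 1.63 CPM (SD, n = 5) in WT. Its log2 fold change of 0.11 (SE 0.04, adjusted p = 0.0815) passed with upper-quartile scaling (0.0447) and without cKO 2 (0.0487). Ncoa2 was at 234 ± 10.6 CPM in cKO and 248 ± 8.75 CPM in WT (log2 -0.08, SE 0.04). Within this family Ncoa1 and Ncoa3 thus had log2 differences of opposite sign, and the difference between them was not tested.

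The 4 genes listed as bromodomain proteins, Brd1, Brd2, Brd3 and Brd8, had log2 differences of at most 0.08 in size. Brd2, a BET protein that binds acetylated histone H4, was at 400 ± 4.06 CPM (SD, n = 4) in cKO and 407 ± 8.05 CPM (SD, n = 5) in WT (log2 -0.02, SE 0.03, 95% interval from -0.09 to 0.04). Brd3, its BET paralog, was at 125 ± 3.74 CPM in cKO and 119 ± 2.90 CPM in WT (log2 0.07, SE 0.03, edgeR adjusted p = 0.217). Brd1, a scaffold of the MOZ and HBO1 complexes, was at 126 ± 4.67 CPM in cKO and 133 ± 6.37 CPM in WT, and Brd8, a subunit of NuA4, was at 130.5 ± 6.59 CPM in cKO and 134 ± 11.4 CPM in WT. None of the 4 was called by edgeR, DESeq2 or limma-voom, and 0 had an unadjusted p under 0.05, against 31.1% of all tested genes.

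The summed level of all 13 acetyltransferases and coactivators, per length, ran from 259 to 273 RPKM in cKO and from 276 to 287 RPKM in WT, without overlap. Of the 13 genes, 1 was called, which is 7.69% against 15.8% of all tested genes, and 9 had a negative fold change, as did 7294 of all 14693. The 18 deacetylases summed to between 191 and 214 RPKM in cKO and between 204 and 211 RPKM in WT, with overlap. Ncoa3 alone made up 20.8% of the first sum in cKO and 22.1% in WT, and Hdac7 made up 27.3% of the second in cKO and 27.6% in WT. The first sum averaged 267 RPKM in cKO and 282 RPKM in WT. Ncoa3, which was not called, was at 55.4 RPKM in cKO and 62.2 RPKM in WT, a large part of that gap.

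Within a genotype the samples also varied. The median distance of a sample from the WT mean over the 35 members was between 0.089 and 0.11 on the log2 scale in cKO samples and between 0.033 and 0.074 in WT samples, which enter that mean. Among the WT samples, WT 1 held the lowest value in 12 of 35 members and WT 4 the highest in 14. In Sirt7, Kat2b, Hdac5, Ep300 and Brd8, WT 1 held the lowest WT value, and cKO 6 held the lowest cKO value in 12 members. Without WT 1, 2 members rose and 5 fell in edgeR, and on leaving out cKO 6, cKO 8 or WT 9, 1 rose and none fell. The share of members called moved with that of all genes, at 20% of members and 20.1% of all tested genes without WT 1, and at 2.86% of members against 8.54%, 10.2% and 10.8% of all tested genes without cKO 6, cKO 8 and WT 9.

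**Figure D4:**
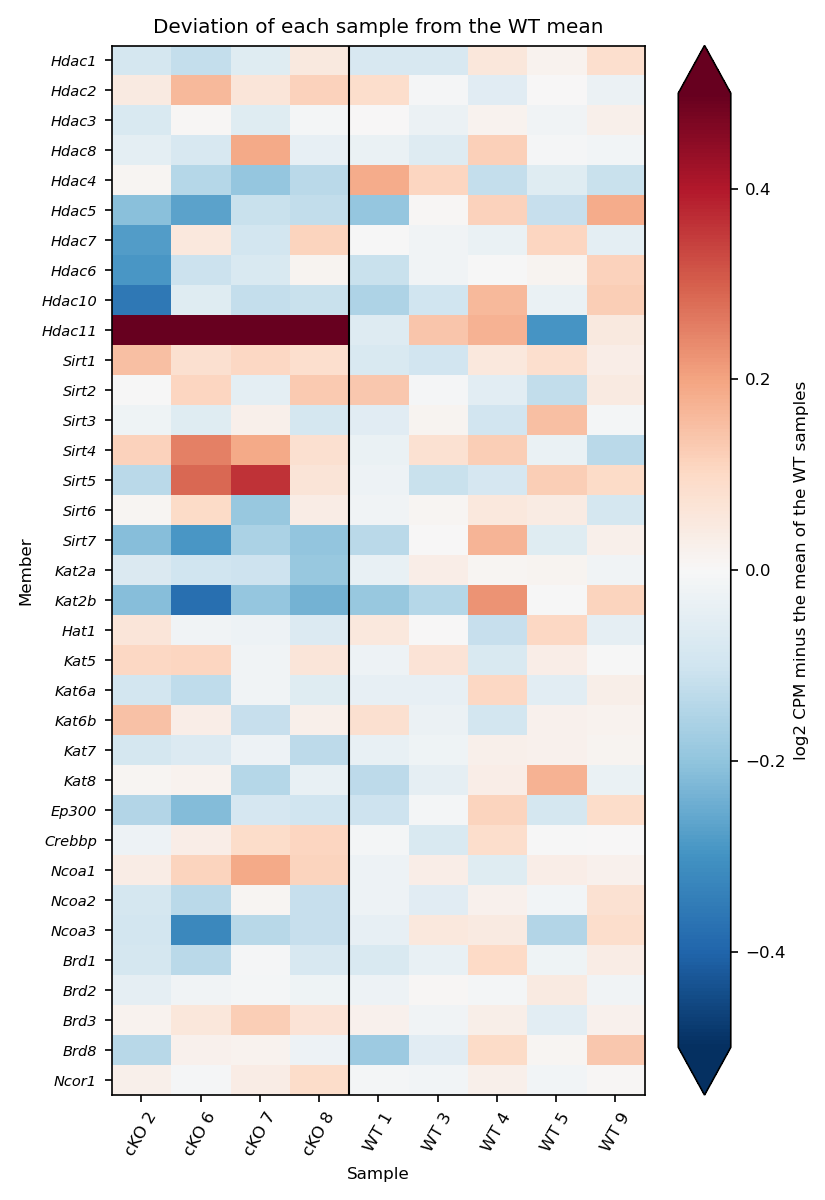
Difference of each sample's log2 CPM from the mean of the WT samples for the 35 tested members, on a colour scale that stops at 0.5 in either direction, with cKO samples left of the line. Hdac11 is beyond the scale in all 4 cKO samples, and WT 1 shares the lower values of cKO samples in genes such as Sirt7 and Kat2b.

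The partners of these enzymes were examined as 7 lists of subunits, readers, kinases and suppliers or users of cosubstrate, chosen for their roles. Of 143 tested partner genes, 9 rose, 12 fell and 122 did not pass in edgeR, which is 14.7% against 15.8% of all tested genes. In fits without 1 sample the number called ran from 8 without WT 9 to 28 without WT 1, and it was 10 without cKO 6, 9 without cKO 8, 9 without WT 3 and 11 without WT 4. Without WT 9 that was 5.59% of partner genes against 10.8% of all tested genes, and without WT 1 it was 19.6% against 20.1%, so the background moved as well.

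Of 31 subunits of the corepressor complexes that carry class I deacetylases, 7 fell, none rose and 24 did not pass. That is 22.6% called against 15.8% of all tested genes, of which 8.82% fell and 7% rose. At unadjusted p under 0.05, 2 were higher, against 14.9% of all tested genes, and 7 were lower, against 16.3%. Both directions together held 29.0% of the list, against 31.1% of all tested genes. In 6 subunits, or 19.4%, the genotypes did not overlap, against 15.9% of all tested genes. DESeq2 and limma-voom called 0 higher and 7 lower. Tbl1xr1, a subunit of the NCOR1 complex, was at 95.9 ± 2.30 CPM (SD, n = 4) in cKO and 111 ± 6.08 CPM (SD, n = 5) in WT (log2 -0.22, SE 0.04, edgeR adjusted p = 0.00874). Chd3, a remodeller of the NuRD complex, was at 498 ± 19.0 CPM in cKO and 564 ± 24.6 CPM in WT (log2 -0.18), and Rbbp7, a histone chaperone of NuRD and Sin3 complexes, was at 320 ± 4.15 CPM in cKO and 354 ± 12.4 CPM in WT (log2 -0.15). These 3 calls held in all 18 other settings. Sin3b, a Sin3 scaffold, was at -0.17 and lost its call on leaving out cKO 2, cKO 8 or WT 9 (adjusted p from 0.0528 to 0.0609). The others that fell were Brms1 and Rbbp4, each lost in 6 of 9 fits without 1 sample (adjusted p from 0.0579 to 0.0893), and Rcor1, lost in 7 of 9 (from 0.0543 to 0.111). Rbbp4 and Rcor1 were also lost with upper-quartile scaling (0.0629 and 0.0587), Rbbp4 with no count filter (0.0562) and Brms1 with offsets on GC content and length (0.0723). Leaving out cKO 6, cKO 7, cKO 8, WT 3 or WT 4 left 4 subunits lower, and leaving out WT 9 left 3. The background dropped as well in these fits, from 1296 of all 14693 tested genes lower with all samples. It was lowest without cKO 6 (732 of 14793) and highest without cKO 7 (1011 of 14817), and without WT 9 it was 920 of 14605.

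The lists of acetyltransferase complexes had 4.17% (SAGA and ATAC), 7.14% (NuA4) and 12.5% (MOZ, HBO1, MSL and NSL) of their genes called, against 15.8% of all tested genes. Of 24 genes of SAGA and ATAC, Taf10 fell (log2 -0.13, edgeR adjusted p = 0.0477), none rose and 23 did not pass. At unadjusted p under 0.05, 1 was higher, against 14.9% of all tested genes, and 5 were lower, against 16.3%. Both directions together held 25% of this list, against 31.1% of all tested genes. DESeq2 called 0 higher and 3 lower, and limma-voom 0 and 1. Of 14 genes of NuA4, Morf4l2 rose (log2 0.17, adjusted p = 0.0493) and none fell. At unadjusted p under 0.05, 1 was lower, against 16.3% of all tested genes, and 2 were higher, against 14.9%. Together they held 21.4% of this list, against 31.1%. DESeq2 and limma-voom each called 0 lower. Each of these calls was lost in 7 of 9 fits without 1 sample (adjusted p from 0.0716 to 0.113 for Taf10 and from 0.0675 to 0.144 for Morf4l2, with both held without WT 1 or WT 5). Taf10 was also lost with DESeq2 size factors (edgeR adjusted p = 0.0522), upper-quartile scaling (0.0912) and 1 surrogate variable (0.0617). Both were lost with no count filter (0.0778 for Taf10 and 0.0613 for Morf4l2) and with offsets on GC content and length (0.0725 for each). Of 16 partners of the MOZ, HBO1, MSL and NSL enzymes, Jade2 and Jade3, scaffolds of HBO1, rose and none fell. At unadjusted p under 0.05, 0 were lower, against 16.3% of all tested genes, and 3 were higher, against 14.9%. Together they held 18.75% of this list, against 31.1%. DESeq2 and limma-voom also called 0 lower, while 1 was lower with offsets on GC content and length. Jade2 was at 239 ± 47.8 CPM (SD, n = 4) in cKO and 174 ± 22.9 CPM (SD, n = 5) in WT, with overlap (log2 0.46, SE 0.12, adjusted p = 0.0291), and Jade3 was at 28.5 ± 0.677 CPM in cKO and 24.8 ± 1.46 CPM in WT (log2 0.20, adjusted p = 0.0240). Jade2 lost its call on leaving out cKO 6, cKO 8, WT 3, WT 4 or WT 9 (from 0.0568 to 0.0721), and Jade3 on leaving out cKO 6, cKO 8 or WT 9 (from 0.0557 to 0.0647). Jade2 also lost it with robust quasi-likelihood (edgeR adjusted p = 0.0601), and Jade3 with offsets on GC content and length (0.0682).

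Of 28 tested genes of other acetyl-lysine readers, 4 rose, 1 fell and 23 did not pass, which is 17.9% called against 15.8% of all tested genes. Brd9, a subunit of a noncanonical BAF complex, was at -0.16 (edgeR adjusted p = 0.0254). Phip and Brwd3, paralogs with tandem bromodomains and WD repeats, were at 0.15 and 0.22, Zmynd8 was at 0.13, and Bptf, a remodeller subunit, was the fourth that rose. With offsets on GC content and length, Phip was at 0.05 (adjusted p = 0.418) and Brwd3 at 0.12 (0.194), and the list then held 1 higher and 3 lower. Without 1 sample, from 0 to 4 rose and from 0 to 1 fell, with 0 and 0 without WT 3. The share of all tested genes called ran from 8.54% without cKO 6 to 20.1% without WT 1, and was 11.4% without WT 3. Brd9 lost its call on leaving out cKO 6, cKO 8, WT 3, WT 4 or WT 9, Phip on leaving out cKO 2, cKO 7, WT 3, WT 5 or WT 9, Brwd3 on leaving out cKO 2, cKO 6, cKO 8, WT 3, WT 4 or WT 9, and Zmynd8 on leaving out cKO 6, cKO 7, cKO 8, WT 1, WT 3 or WT 5 (adjusted p up to 0.0966). Bptf lost its call in 7 of 9 such fits, all but those without cKO 6 and without WT 1 (from 0.0658 to 0.0893), with no count filter (0.116) and with the offsets (0.0527). Zmynd8 also lost its call with no count filter (edgeR adjusted p = 0.0736).

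Class IIa deacetylases are moved out of the nucleus by kinases that phosphorylate them. Of 16 tested genes of this list, Camk2d and Camk4, which encode calcium-dependent kinases, fell, Sik3 rose and 13 did not pass, which is 18.8% called against 15.8% of all tested genes. Camk2d was at 54.2 ± 4.20 CPM (SD, n = 4) in cKO and 67.5 ± 4.11 CPM (SD, n = 5) in WT (log2 -0.32, SE 0.06, edgeR adjusted p = 0.00623). Camk4 was at 152 ± 11.2 CPM in cKO and 181 ± 9.86 CPM in WT (log2 -0.26, SE 0.06, adjusted p = 0.0120). Both calls held in all 18 other settings, while that of Sik3 (log2 0.16, adjusted p = 0.0485) was lost in 8 of 9 fits without 1 sample, all but the one without WT 1 (from 0.0658 to 0.140). The call of Sik3 was also lost with no count filter (edgeR adjusted p = 0.073) and with 1 surrogate variable (0.058). Of 14 genes listed for the supply or use of acetyl-CoA or NAD, 1 rose and 1 fell, which is 14.3% called against 15.8%. Acss1, the mitochondrial acetyl-CoA synthetase, was at 7.04 ± 1.18 CPM in cKO and 11.7 ± 1.43 CPM in WT (log2 -0.74, SE 0.13, adjusted p = 0.00375). Pdha1, a subunit of pyruvate dehydrogenase, was at 345 ± 6.57 CPM in cKO and 310 ± 5.62 CPM in WT (log2 0.15, SE 0.03, adjusted p = 0.00683). These 2 calls also held in all 18 other settings, and the number that rose ran from 1 to 3 over those settings, with 3 by DESeq2, with upper-quartile scaling and without WT 1.

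**Figure D5:**
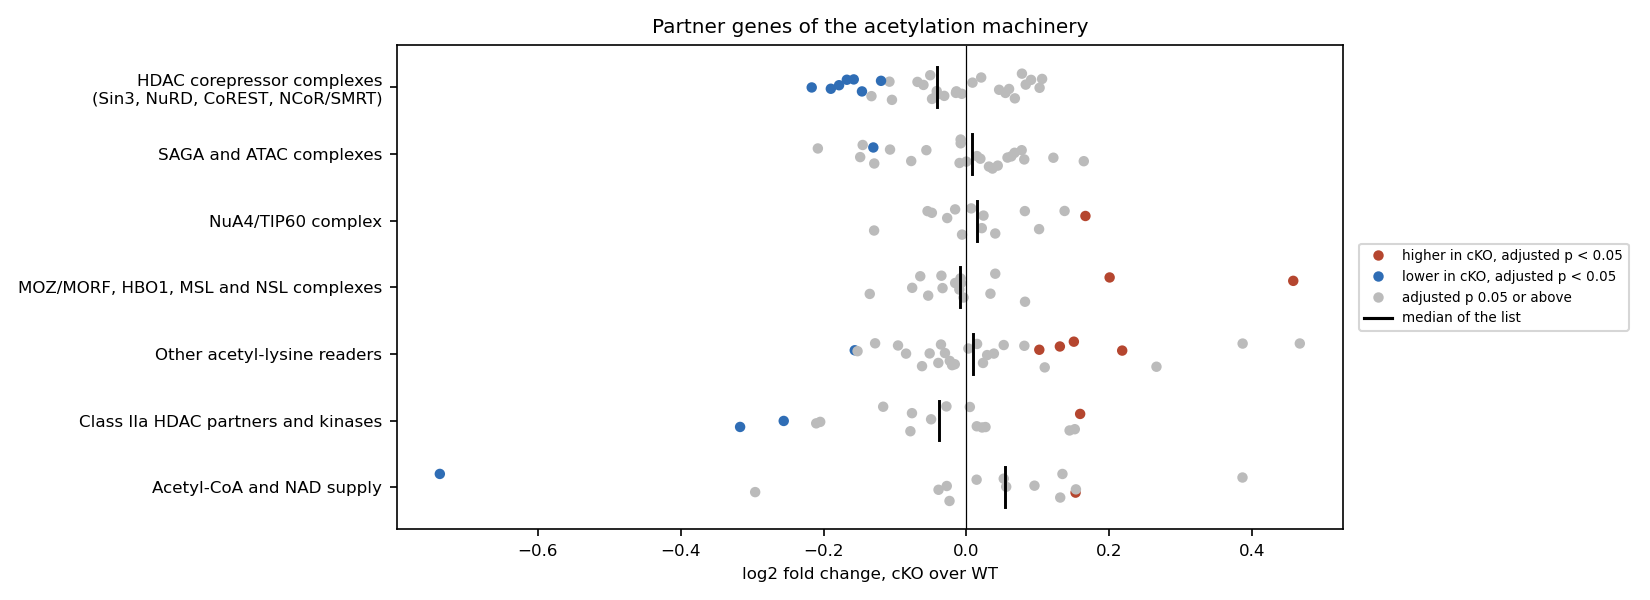
Log2 fold changes, cKO over WT, of the tested partner genes in 7 lists, with 1 point per gene, colour for the call and a black bar for the median of each list. The 7 called corepressor subunits all lie between -0.22 and -0.12, and Acss1, at -0.74, is the farthest point.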

How the data were processed

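The authors deposited raw counts of reads per gene in 1 table, as whole numbers with no normalization, with 1 column for each of the 9 samples. Per the labels' protocols, RNA was extracted with a Zymo Direct-zol kit and libraries were made with a stranded KAPA kit that enriches mRNA. The build mm10 and the tool bcl2fastq 2.17 are named in the submitters' processing notes. Aligner, counter, strand setting and annotation: not given in the sources used here. Columns were matched to samples by title. Symbols were found for 37607 of 39017 IDs, and positions and exonic lengths came from GENCODE M21 (mm10), which may differ from the authors' annotation.

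All 9 samples entered edgeR (version 4.0.16, with R 4.3.3) and its two-sided quasi-likelihood test, with TMM scaling, filterByExpr, no covariate and Benjamini-Hochberg adjustment over 14693 genes (adjusted p below 0.05). Standard errors come from the F statistic, intervals are 95%, and RPKM are CPM per kilobase of exon. Every pair of replicates differed beyond sampling noise (chi-square per gene from 3.34 to 20.3), and the labels name no batch. The code was tested on simulated data.

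The members and lists were chosen with earlier results of these data known. By rule, every member is accounted for, values by sample are given for called members and for Hdac1, Hdac2, Hdac3, Ep300 and Crebbp, and up to 4 called genes of each list are named by adjusted p. Values by sample of other members, and further names, were chosen after the values were seen. Csrp2bp, an older symbol of the listed Kat14, had no match of its own. The 18 other settings were upper-quartile scaling, DESeq2 size factors, no filter on counts, at least 1 CPM in 4 samples, DESeq2 1.42.0, limma-voom (limma 3.58.1), robust quasi-likelihood, 1 surrogate variable (sva 3.50.0), offsets on GC content and length, and leaving out each of the 9 samples.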

Additional observations from a re-analysis of the deposited data

Results flagged for a closer look

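Hdac8 in cKO 7 stood apart from the other cKO samples, at 16.9 CPM, where the next highest cKO sample was at 14.4 CPM. The gap, divided by the range of the 4 samples, was 0.862, above Dixon's 95% critical value for 4 samples. This was the 1 flag among 70 groups of values (35 members in each genotype), where chance flags about 1 in 20. Without cKO 7 the log2 fold change of Hdac8 was -0.06, against 0.006 with it, and neither passed the edgeR test.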

How the results depend on the processing

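No paired analysis was possible because the labels state no litter or pairing. The number of members called higher was 1, and 2 with upper-quartile scaling, and from 1 to 2 without 1 sample. The number called lower was 2, and 1 with DESeq2 size factors or upper-quartile scaling, 3 with at least 1 CPM in 4 samples, DESeq2 or 1 surrogate variable, and from 0 to 5 without 1 sample. Partner genes called numbered 21, 16 to 25 in the other fits on all samples and from 8 to 28 without 1 sample. The difference in mitochondrial share, 0.214 percentage points, ran from 0.171 to 0.270 without 1 sample, with exact permutation p up to 0.0571. Over all tested genes, 1265 were higher and 1068 lower with upper-quartile scaling, against 1028 and 1296 with TMM. Small differences changed sign. With upper-quartile scaling Sirt6 was at 0.012 and Hat1 at 0.0047. With 1 surrogate variable Kat6b was at -0.012 and Brd8 at 0.026. With GC and length offsets Hdac8 was at -0.040, Sirt6 at 0.015 and Kat6b at -0.0036. Without 1 sample, log2 fold changes ran from -0.10 to 0.026 for Hdac7, -0.018 to 0.068 for Kat6b, -0.077 to 0.0012 for Brd8, -0.058 to 0.037 for Hdac8, -0.044 to 0.048 for Sirt6, -0.042 to 0.012 for Hat1 and -0.070 to 0.0068 for Kat8. The cause was not tested. Counts of 13 to 42 per library limit Hdac11, and those of Hdac9, from 2 to 16, kept it out of all but 2 of the 18 other settings.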

Other observations

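Some members share exonic bases with genes on the other strand that differed between genotypes. Sulf2, which encodes an extracellular sulfatase, was at 25.1 CPM in cKO and 15.8 CPM in WT (log2 0.67, SE 0.13, edgeR adjusted p = 0.00717), and it shares 154 bases, 1.95% of the exonic length of Ncoa3. H2-DMa, which encodes a chain of the peptide exchange factor of MHC class II, was at 30.2 CPM in cKO and 46.9 CPM in WT (log2 -0.63, SE 0.16, adjusted p = 0.0208), and it shares 360 bases with Brd2. Slc48a1, which encodes a heme transporter, was at 49.5 CPM in cKO and 54.8 CPM in WT (log2 -0.15, adjusted p = 0.0352), and it shares 29 bases with Hdac7. The members beside them had log2 differences of -0.17, -0.02 and -0.04.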
